A study of Mus musculus with 12 samples.

Results

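Wfdc3, Wfdc5, Wfdc12, Wfdc21 and Slpi, 5 secreted proteins of the whey acidic protein (WAP) family, were followed in mouse epidermis that lacks, per the labels, the vitamin D receptor and its coactivator Med1 in keratinocytes. They were chosen by name, with the expression values of these libraries known, from 19477 genes with values in at least 1 of the 2 deposited tables. Because the values of all groups were known when the members were picked, the levels and genotype differences of the 5 members are given as a description, with no test.

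The libraries came from dorsal epidermis of mice on a C57BL/6 background, in 4 groups of 3. The libraries labelled DKO came from mice floxed for VDR (VDR fl/fl) and for Med1 (Med1 fl/fl) with K14 Cre+/-, at postnatal day 36 (P36) and at 6 months. The control libraries came from mice with both floxed alleles and K14 Cre-/-, at the same ages. Both genotypes therefore carry the floxed alleles, and only the libraries labelled DKO carry the Cre transgene, whose keratin 14 promoter drives it in keratinocytes of the basal layer and not in immune or muscle cells. The labels do not say whether replicates are separate animals, so the spread between libraries may be partly technical.

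WAP proteins carry a small fold held together by disulfide bonds, and several of them block serine proteases or kill bacteria. Slpi, the secretory leukocyte protease inhibitor, acts on neutrophil elastase, cathepsin G and mast cell chymase and is made by epithelia and by white blood cells. In skin, the balance of such inhibitors with serine proteases bears on the shedding of the cornified layer and on the response to wounds and microbes.

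The values are FPKM, reads scaled to gene length and to the size of the library, so levels of different genes can be set side by side. The files hold no read numbers, so counting error cannot be stated, and the FPKM of a library added up to 446617.2 to 554382.1. Med1 averaged 9.11 ± 1.11 FPKM in the libraries labelled DKO and 13.8 ± 0.504 FPKM in control at P36 (SD, n = 3; limma adjusted p = 0.0083), and 11.6 ± 0.256 and 14.2 ± 2.21 FPKM at 6 months (limma adjusted p = 0.13). Vdr averaged 83.5 ± 6.06 FPKM in the libraries labelled DKO and 68.0 ± 4.16 FPKM in control at P36 (limma adjusted p = 0.0573), and 48.1 ± 5.49 and 40.5 ± 11.6 FPKM at 6 months (limma adjusted p = 0.302). Vdr was thus not lower where the label says it is deleted, and every direction below rests on that label. A value for the whole gene cannot show a missing exon. The keratinocyte markers Krt5, Krt14, Krt1 and Krt10 were present in every library. The 11 measured markers summed to 11500 to 14400 FPKM in the libraries labelled DKO at P36, against 5960 to 7800 FPKM in control. At 6 months the sums were 11200 to 13600 and 13700 to 20500 FPKM, so the genotypes did not overlap at either age. At P36 3 of 11 tested markers were called higher and 0 lower (limma adjusted p below 0.05), against 18.0% and 5.32% of all genes. At 6 months 1 of 10 was called higher and 4 lower, against 23.2% and 18.2% of all genes.

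Of the 5 members, 4 (Slpi, Wfdc3, Wfdc5 and Wfdc12) lie on chromosome 2 and Wfdc21 lies on chromosome 11, by the RefSeq gene table. Promoter sequences of 3 members, all of them on chromosome 2, were given in the RefSeq promoter table (build GRCm38.p6). All 3 are shown, since no promoter of another member was available. They are also the 3 genes whose libraries of the 2 genotypes did not overlap at either age in the deposited values. Wfdc12 and Slpi were higher in the libraries labelled DKO, and Wfdc3 was lower. Each line gives the 250 bases before the annotated start, 5′ to 3′ on the gene's own strand, which is the minus strand in all 3. The stretches lie at chr2:164190559-164190808 (Wfdc12), chr2:164356508-164356757 (Slpi) and chr2:164743268-164743517 (Wfdc3). Capitals mark the 6-base unit CACCAG in Wfdc12 and, in Wfdc3, 1 match each of AGGTCA (on the other strand) and GGTTCA.
Wfdc12: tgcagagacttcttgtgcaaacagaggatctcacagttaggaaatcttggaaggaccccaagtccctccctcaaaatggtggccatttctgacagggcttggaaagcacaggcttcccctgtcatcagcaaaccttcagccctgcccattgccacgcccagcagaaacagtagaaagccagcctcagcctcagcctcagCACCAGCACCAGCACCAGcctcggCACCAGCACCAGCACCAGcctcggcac
Slpi: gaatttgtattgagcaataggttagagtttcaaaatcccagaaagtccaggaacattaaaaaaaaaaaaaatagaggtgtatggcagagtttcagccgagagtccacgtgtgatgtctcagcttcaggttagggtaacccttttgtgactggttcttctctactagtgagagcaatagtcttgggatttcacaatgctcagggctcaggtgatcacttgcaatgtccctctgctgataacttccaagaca
Wfdc3: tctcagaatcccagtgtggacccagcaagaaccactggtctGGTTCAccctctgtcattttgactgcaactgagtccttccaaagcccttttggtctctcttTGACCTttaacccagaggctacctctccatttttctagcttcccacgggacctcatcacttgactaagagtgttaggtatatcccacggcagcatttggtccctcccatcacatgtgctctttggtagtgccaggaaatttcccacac

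The Wfdc12 stretch holds, just before the start, a tandem repeat in which CACCAG occurs 6 times. As many copies, on either strand, were found in 0.0152% of the 32851 stretches of the same length in the table; this unit was picked after the sequence was read. The site AGGTCA, which nuclear receptors such as the vitamin D receptor bind in pairs, was found once, as TGACCT, 148 bases before the start of Wfdc3 and in 14.0% of all stretches. Its second spelling GGTTCA, added to the search after the sequence was read, was found 209 bases before that start and in 8.85% of all stretches. The paired vitamin D response element, searched as AGGTCA or as GGTTCA repeated with NNN between the copies (0.00609% of all stretches for each), was in none of the 3 stretches, nor were the AP-1 site TGANTCA (6.75% of all stretches), the NF-kB site GGGNN followed by TTTCC (1.41%), TATAAA (12.4%) or CCAAT (33.8%), each searched on both strands. Each single site is also a part of a response element, so the searches overlap. A missing match says only that these letters are not in this window.

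At P36, all 3 libraries labelled DKO stood above all 3 control libraries for 4 members (Slpi, Wfdc5, Wfdc12 and Wfdc21), and below them for Wfdc3. Over all 12660 genes kept at that age, the groups did not overlap for 39.6%, with the libraries labelled DKO above control for 30.0% and below for 9.63%. At 6 months, Wfdc12 and Slpi stood above, Wfdc3 stood below, and the groups of Wfdc5 and Wfdc21 overlapped, against 55.7% of 12594 genes without overlap, 31.8% above and 24.0% below. Nothing is read from these shares, since the values chose the members. A gene was kept where at least 3 of the 6 libraries of an age reached 1 FPKM. All 5 members were kept at both ages, but Wfdc12 only through the libraries labelled DKO and, at 6 months, Wfdc3 only through the control libraries. In bulk tissue, fewer cells of a type and less RNA per cell cannot be told apart. Differences are given on the log2(FPKM + 1) scale with the SE of a limma fit across all genes kept; that scale understates the change of low genes.

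**Figure D1:**
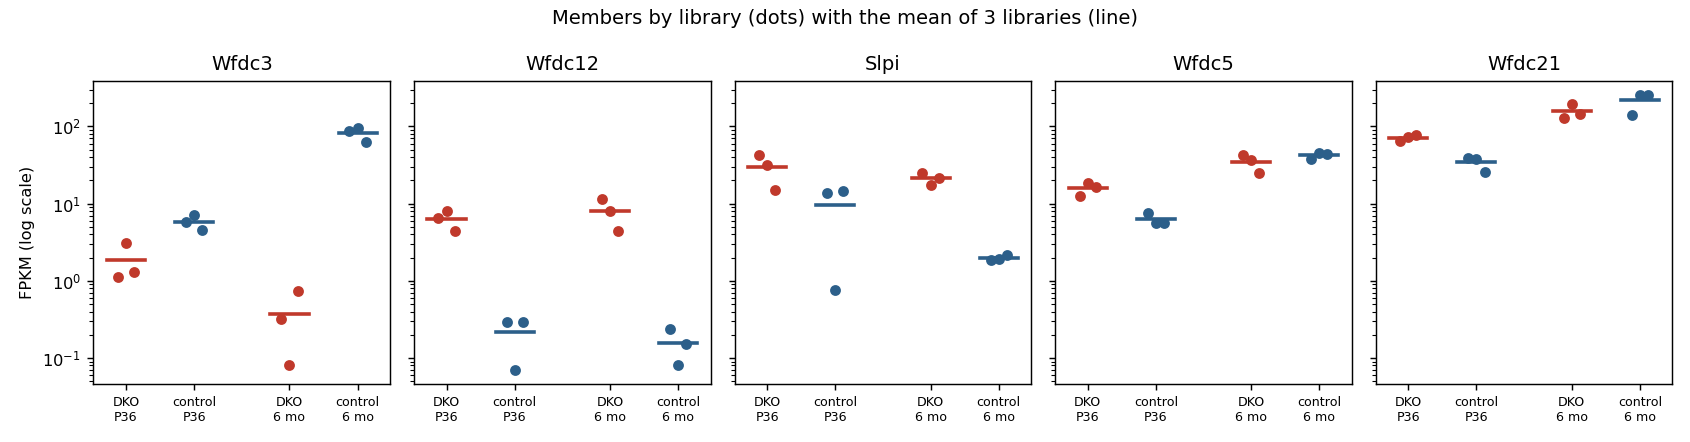
FPKM of the 5 members on a logarithmic axis in the 12 libraries (dots; libraries labelled DKO in red, control in blue), with lines at the mean of the 3 libraries of a group. At 6 months Wfdc3 is at or below 0.73 FPKM in the libraries labelled DKO and at or above 63.53 FPKM in control, while Wfdc12 and Slpi are higher in the libraries labelled DKO at both ages.

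Wfdc3, a less studied WAP protein, showed the widest gap between the genotypes. Its 6-month values were 0.32, 0.08 and 0.73 FPKM in the libraries labelled DKO, against 88.23, 94.23 and 63.53 FPKM in control. Wfdc3 stood above 23.2%, 14.7% and 26.0% of the genes with values in the libraries labelled DKO, against 95.8%, 96.0% and 93.4% in control, and the groups were far apart. The means were 0.377 ± 0.329 and 82.0 ± 16.3 FPKM (SD, n = 3), a 218-fold higher mean in control, and the log2 difference was −5.92 (SE 0.22), the second lowest of the 12594 genes kept. At P36 the gap was smaller: Wfdc3 had 1.13, 3.11 and 1.32 FPKM in the libraries labelled DKO, against 5.70, 7.07 and 4.51 FPKM in control. Again no library of one genotype reached the range of the other, with means of 1.85 ± 1.09 and 5.76 ± 1.28 FPKM and a log2 difference of −1.29 (SE 0.26). The 2 ages were deposited in separate tables, and no test was run across them. Set side by side, the control mean was higher at 6 months than at P36 and the mean of the libraries labelled DKO was lower.

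Slpi was higher in the libraries labelled DKO at both ages. Slpi at 6 months had 25.17, 17.67 and 21.64 FPKM in the libraries labelled DKO, against 1.87, 1.91 and 2.19 FPKM in control. The control libraries lay close together and far below the others, with means of 21.5 ± 3.75 and 1.99 ± 0.174 FPKM, a 10.8-fold difference (log2 difference 2.90, SE 0.15). At P36 it had 43.19, 31.95 and 14.90 FPKM in the libraries labelled DKO, against 13.88, 0.77 and 14.41 FPKM in control. Here the genotypes only just failed to overlap: the lowest library labelled DKO, at 14.90 FPKM, stood beside a control library at 14.41 FPKM, and with median-ratio scaling of the libraries they did overlap. The log2 difference of 1.94 (SE 0.80) rested in large part on control P36 replicate 2, and was 0.91 (SE 0.38) without it.

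Wfdc12, a small antibacterial WAP protein in mouse, was barely listed in control and present in every library labelled DKO. At P36 it had 6.59, 8.05 and 4.36 FPKM in the libraries labelled DKO, against 0.29, 0.07 and 0.29 FPKM in control. At 6 months the values were 11.41, 7.99 and 4.41 FPKM, against 0.24, 0.08 and 0.15 FPKM in control. No control library reached 1 FPKM at either age, and every library labelled DKO was above 4 FPKM. The ratio of the means was 29.2 at P36 and 50.7 at 6 months, with log2 differences of 2.56 (SE 0.20) and 2.87 (SE 0.29). The ratios divide by control means of 0.217 ± 0.127 and 0.157 ± 0.0802 FPKM, so that small shifts in control move them a great deal. RefSeq places the long noncoding gene A730032A03Rik over both Wfdc12 and Wfdc5 and the microRNA gene Mir7678 over Slpi, and no strand setting is given for the counting, so reads of these genes cannot be told apart there.

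Wfdc5 and Wfdc21 shared another pattern, higher in the libraries labelled DKO at P36 and overlapping between genotypes at 6 months. Wfdc5, which lies next to Wfdc12, had 12.59, 18.51 and 16.52 FPKM in the libraries labelled DKO at P36, against 7.47, 5.54 and 5.69 FPKM in control (log2 difference 1.22, SE 0.16). Its 6-month values were 42.12, 36.28 and 24.81 FPKM in the libraries labelled DKO, against 37.86, 44.84 and 44.47 FPKM in control (log2 difference −0.32, SE 0.19). The lowest value belonged to a library labelled DKO, and the other two of that group stood at the level of control replicate 1. With each library rescaled to TPM, a common total, all 3 libraries labelled DKO lay below control.

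Wfdc21, also known as Wdnm1-like, was the most abundant member in all 4 groups. At P36 it had 63.99, 73.26 and 77.92 FPKM in the libraries labelled DKO, against 38.98, 37.47 and 25.89 FPKM in control (log2 difference 1.07, SE 0.16). At 6 months it had 130.39, 194.75 and 146.66 FPKM in the libraries labelled DKO, against 138.58, 256.72 and 255.96 FPKM in control (log2 difference −0.43, SE 0.27). Control replicate 1 stood well below the other two controls at 6 months and inside the range of the libraries labelled DKO. Whether the genotype difference of Wfdc5 or Wfdc21 changed between the ages was not tested. RefSeq lists Wfdc21 beside its relatives Wfdc17 and Wfdc18, and no source used here says how reads shared by related genes were assigned.

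**Figure D2:**
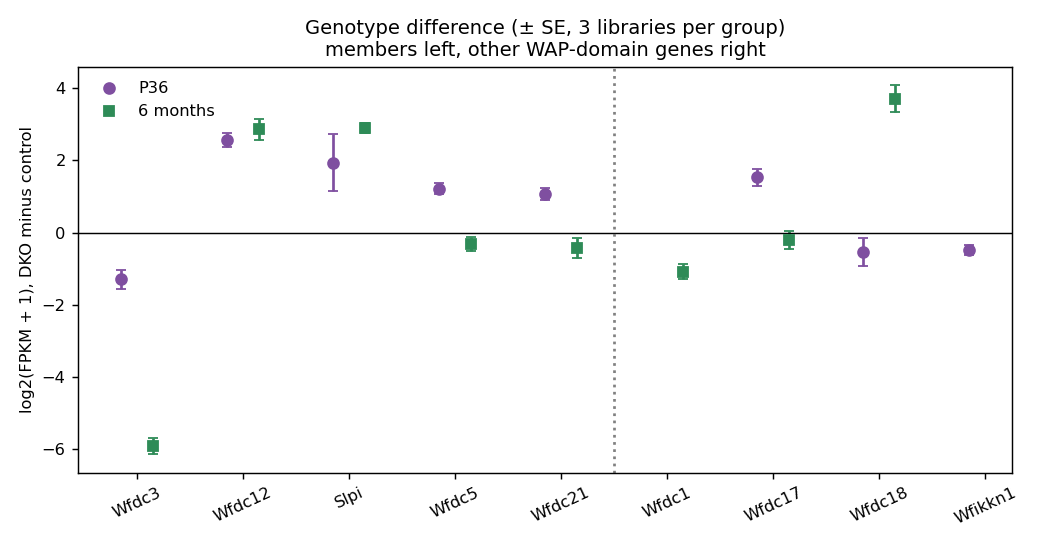
Difference of mean log2(FPKM + 1), the libraries labelled DKO minus control, with SE, at P36 (circles) and 6 months (squares), for the 5 members on the left and the 4 other WAP-domain genes that were tested at either age on the right. Wfdc3 lies at −5.92 and Wfdc12 and Slpi at 2.87 and 2.90 at 6 months, while Wfdc5 and Wfdc21 lie above 0 at P36 and below it at 6 months.

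The order of the members by FPKM differed between the groups. In the libraries labelled DKO at P36 the order was Wfdc21, Slpi, Wfdc5, Wfdc12 and Wfdc3, with overlapping ranges for Slpi and Wfdc5. In control at P36 it was Wfdc21, Slpi, Wfdc5, Wfdc3 and Wfdc12, and Slpi overlapped with Wfdc5 as Wfdc5 did with Wfdc3. In the libraries labelled DKO at 6 months Wfdc5 and Slpi, whose ranges overlapped, followed Wfdc21, and Wfdc12 and Wfdc3 came last. In control at 6 months Wfdc3 stood second at 82.0 FPKM, above Wfdc5 at 42.4, Slpi at 1.99 and Wfdc12 at 0.157 FPKM, and no neighbours overlapped.

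Summed over the 5 members, the libraries labelled DKO held 127, 135 and 115 FPKM at P36, against 66.3, 50.9 and 50.8 FPKM in control. At 6 months the sums were 209, 257 and 198 FPKM in the libraries labelled DKO, against 267, 398 and 366 FPKM in control. For these 5 the genotypes did not overlap at either age, and the libraries labelled DKO had the higher sum at P36 and the lower at 6 months. Summed over all measured WAP-domain genes, members included, the genotypes overlapped at both ages. Those sums were 191, 217 and 170 FPKM in the libraries labelled DKO at P36, against 116, 131 and 203 FPKM in control. At 6 months they were 255, 283 and 249 FPKM, against 280, 407 and 376 FPKM in control. Of all measured WAP-domain transcripts, Wfdc3 made up 0.125%, 0.0283% and 0.293% in the libraries labelled DKO at 6 months, against 31.5%, 23.2% and 16.9% in control. Slpi made up 9.87%, 6.25% and 8.68% in the same libraries labelled DKO, against 0.667%, 0.469% and 0.582% in control.

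**Figure D3:**
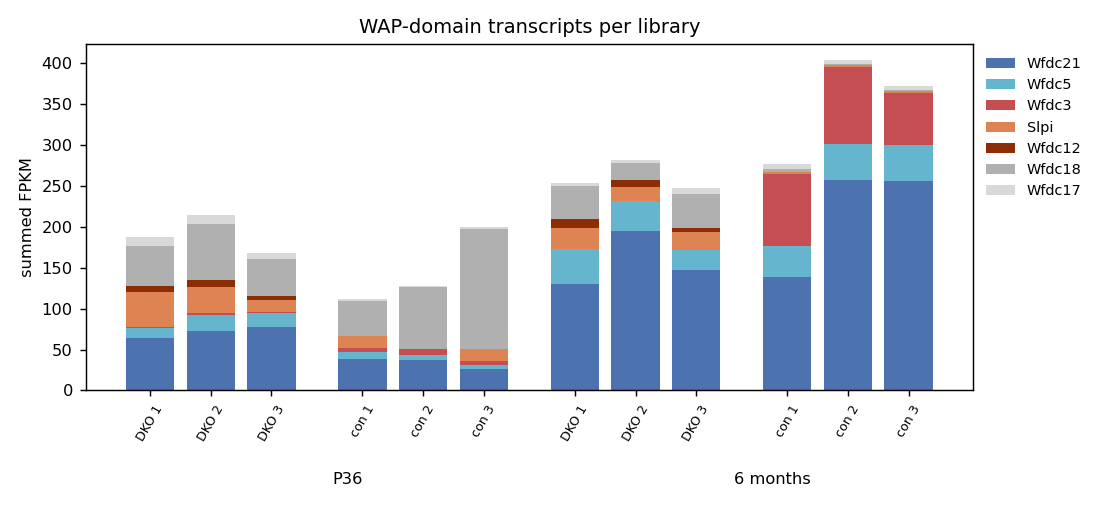
Summed FPKM of 7 WAP-domain genes in each library, stacked by gene, with the 3 libraries labelled DKO left of the 3 control libraries at each age. The red part, Wfdc3, is 63.53 to 94.23 FPKM high in control at 6 months and at most 0.73 FPKM in the libraries labelled DKO, where the brown and orange parts of Wfdc12 and Slpi are larger.

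Besides the members, 18 mouse genes with a WAP domain were listed (the other Wfdc genes, Wap, Eppin and the Wfikkn genes), of which 16 had values in at least 1 table. Most were at or near 0 in epidermis: Wfdc8 was listed at 0 in all libraries of the P36 table, and Wfdc9, Wfdc10, Wfdc11, Wfdc13, Wfdc15a, Wfdc15b, Wfdc16, Wap and Eppin never exceeded 0.58 FPKM. Only 3 genes were tested at each age. At P36 1 of 3 rose and 0 fell, with a median log2 difference of −0.48; over all genes 23.3% were called at a limma adjusted p below 0.05, 18.0% higher and 5.32% lower, with a median of 0.092. At 6 months 1 of 3 rose and 1 fell, with a median of −0.20, against 41.3% of all genes called, 23.2% higher and 18.2% lower, and a median of 0.045. The split of the calls depends on scaling: 2275 genes were called higher and 674 lower at P36, but 1597 and 1113 with median-ratio scaling, and 2918 and 2289 at 6 months, but 2120 and 3261 with the FPKM of each library rescaled to one total (TPM).

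Wfdc18, an extracellular proteinase inhibitor first known from mammary gland, rose at 6 months. It had 40.22, 20.98 and 41.92 FPKM in the libraries labelled DKO, against 3.38, 0.99 and 0.99 FPKM in control (log2 difference 3.71, SE 0.38, limma adjusted p = 0.000679). At P36 it had 48.97, 68.86 and 46.00 FPKM in the libraries labelled DKO, against 42.47, 75.34 and 146.40 FPKM in control, with overlapping groups (−0.53, SE 0.39, limma adjusted p = 0.396).

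Wfdc17, a WAP protein of activated macrophages and microglia, rose at P36. Its values were 11.71, 10.49 and 6.82 FPKM in the libraries labelled DKO, against 3.56, 1.83 and 2.71 FPKM in control (log2 difference 1.53, SE 0.23, limma adjusted p = 0.0029). At 6 months it averaged 4.68 ± 1.96 FPKM in the libraries labelled DKO and 5.39 ± 1.19 FPKM in control (SD, n = 3), which was not called (limma adjusted p = 0.538). Wfdc1, a secreted WAP protein, fell at 6 months to 0.447 ± 0.302 FPKM in the libraries labelled DKO, against 2.05 ± 0.59 FPKM in control (log2 difference −1.08, limma adjusted p = 0.00715). It passed the filter on low values only through the control libraries, so a difference was built into its being tested. Wfikkn1, a protein with several inhibitor domains, averaged 0.937 ± 0.11 FPKM in the libraries labelled DKO and 1.72 ± 0.381 FPKM in control at P36 and was not called (limma adjusted p = 0.0504). It was called lower without control P36 replicate 3 (limma adjusted p = 0.0237). Wfdc2 and Wfikkn2 stayed under 1 FPKM in all libraries.

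The proteases that Slpi and related inhibitors are known to act on were examined next, as 9 genes with values. For scale, 18.0% of all genes were called higher and 5.32% lower at P36, and 23.2% and 18.2% at 6 months. At P36 3 of 5 tested genes rose and 0 fell, with a median log2 difference of 2.24. These were the mast cell proteases Tpsb2, Mcpt4 and Cma1, which are also mast cell markers; Cma1, a chymase, averaged 30.2 ± 6.75 FPKM in the libraries labelled DKO and 5.73 ± 2.25 FPKM in control (limma adjusted p = 0.000872). At 6 months 1 of 5 rose and 1 fell, with a median of 0.60, and these counts lay near the shares over all genes. Klk7, a chymotrypsin-like kallikrein that cuts the links between corneocytes, rose to 918 ± 39.8 FPKM in the libraries labelled DKO, against 410 ± 39.2 FPKM in control (log2 difference 1.16, limma adjusted p = 0.000526). Klk5, a trypsin-like kallikrein, fell to 118 ± 6.47 FPKM, against 218 ± 42.6 FPKM in control (−0.86, limma adjusted p = 0.00486). The neutrophil proteases Elane, Ctsg and Prtn3, the best known targets of such inhibitors, did not reach 1 FPKM in enough libraries to be tested.

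Antimicrobial and cytokine genes were listed because epithelia make Slpi and other WAP proteins alongside them. At P36 6 of 13 tested genes rose and 0 fell (median 1.41), and at 6 months 10 of 14 rose and 0 fell (median 1.62). The shares over all genes were 18.0% higher and 5.32% lower at P36, and 23.2% and 18.2% at 6 months. Among those that rose at P36, Cxcl1 and Cxcl5 passed the filter only through the libraries labelled DKO. A difference was thus built into their being tested. The same held at 6 months for Defb4 and for Saa3, which was not called. Defb3 had 0.20, 0.38 and 1.70 FPKM in control at that age. Lcn2, which withholds iron from bacteria, had 61.87, 93.34 and 44.47 FPKM in the libraries labelled DKO at P36, against 8.30, 2.75 and 9.86 FPKM in control (limma adjusted p = 0.00168). At 6 months it had 118.99, 61.83 and 63.89 FPKM, against 4.24, 2.66 and 4.88 FPKM in control (limma adjusted p = 0.000197). Its control replicate 2 at P36 was the lowest of the 3, as for Slpi. The defensin Defb4 rose at 6 months to 4.82 ± 0.69 FPKM in the libraries labelled DKO, against 0.383 ± 0.179 FPKM in control (limma adjusted p = 0.000255), but it passed the filter only through the libraries labelled DKO. The interleukin 36 gene Il1f9 rose at both ages, with 172 ± 43.5 FPKM in the libraries labelled DKO and 55.2 ± 14.0 FPKM in control at 6 months (limma adjusted p = 0.00275).

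Markers of white blood cells and of tissue below the epidermis were summed per library, and some of the sums separated the genotypes. The 12 neutrophil markers summed to 45.5 to 140 FPKM in the libraries labelled DKO and 20.5 to 83.9 FPKM in control at P36, and to 141 to 610 and 18.4 to 29.5 FPKM at 6 months. Most of each sum, at P36 as at 6 months, was S100a8 and S100a9, which keratinocytes also make. Among the 12, 3 of 5 tested genes rose at P36. Of these, Csf3r and Retnlg passed the filter only through the libraries labelled DKO, so a difference was built into their being tested. Without any 1 library labelled DKO these genes were not tested, and 1 gene rose. At 6 months 3 of 3 rose. Of all genes, 18.0% were called higher at P36 and 23.2% at 6 months. S100a8 at P36 was at 55.35, 39.86 and 17.51 FPKM in the libraries labelled DKO and 17.51, 15.11 and 56.48 FPKM in control. Among neutrophil markers too low to test, the highest value at P36 was 2.16 FPKM in the libraries labelled DKO and 0.49 FPKM in control, both of Camp. Among the 9 too low to test at 6 months, the highest was 2.62 FPKM in the libraries labelled DKO and 0.74 FPKM in control, both of Csf3r, followed by Retnlg, with up to 1.66 and 0.31 FPKM. Ly6g, Elane, Ngp and Camp did not exceed 0.11 FPKM in the libraries labelled DKO or 0.22 FPKM in control at that age.

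Macrophage and mast cell markers summed to 508, 406 and 405 FPKM in the libraries labelled DKO at P36, against 77.8, 92.6 and 106 FPKM in control, and 11 of 12 tested genes rose and 1 fell. At 6 months they summed to 105, 160 and 453 FPKM, against 115, 100 and 183 FPKM in control, and 1 rose and 1 fell. Of all genes, 18.0% were called higher and 5.32% lower at P36, and 23.2% and 18.2% at 6 months. Skeletal muscle markers summed to 725, 489 and 265 FPKM in the libraries labelled DKO at P36, against 81.9, 64.9 and 106 FPKM in control, and over the 3 libraries labelled DKO the muscle sum, the neutrophil sum and Slpi had the same order. At 6 months the muscle sums overlapped, at 78.0, 63.6 and 241 FPKM in the libraries labelled DKO and 65.6, 138 and 113 FPKM in control. In the same libraries labelled DKO the neutrophil sums were 252, 610 and 141 FPKM, and Slpi was at 25.17, 17.67 and 21.64 FPKM. The muscle sum, the neutrophil sum and Slpi thus differed in order at that age. The part of these cells in the levels of the members was not tested.

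**Figure D4:**
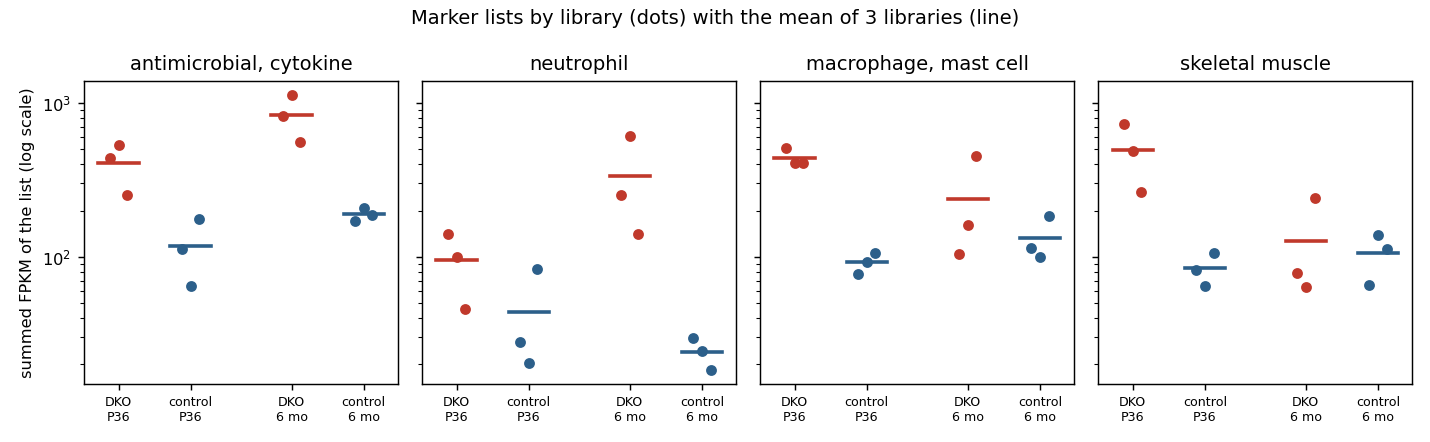
Summed FPKM, on a logarithmic axis, of the antimicrobial and cytokine, neutrophil, macrophage and mast cell, and skeletal muscle lists in each library (dots; libraries labelled DKO in red, control in blue), with lines at the group means. The macrophage and mast cell and the muscle lists separate the genotypes at P36, where the lowest library labelled DKO is at 405 and 265 FPKM, and overlap at 6 months.

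Markers of the sebaceous gland and upper follicle were the last list. Of 15 tested genes 7 rose and 1, Scd3, fell at P36 (median 0.51), against 18.0% of all genes called higher and 5.32% lower. At 6 months 10 rose and 1, again Scd3, fell (median 1.67), against 23.2% and 18.2% of all genes. Their sums at P36 were 1440, 1940 and 1830 FPKM in the libraries labelled DKO, against 1060, 795 and 1040 FPKM in control. At 6 months they were 3100, 3020 and 3030 FPKM, against 1100, 754 and 1180 FPKM in control. The genotypes did not overlap at either age. Klk6, a kallikrein, rose to 138 ± 43.0 FPKM in the libraries labelled DKO at 6 months, against 9.27 ± 1.74 FPKM in control (log2 difference 3.72, limma adjusted p = 0.000194), and at P36 it averaged 137 ± 43.6 and 90.3 ± 56.6 FPKM (limma adjusted p = 0.309).

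Genes with the most similar pattern were found among 11853 genes by the root-mean-square difference of log2(FPKM + 1), each gene centred on its own mean, over the 12 libraries. That mean spans both tables, so differences between the ages or the tables enter the measure along with differences between the genotypes. The genes nearest to Wfdc3 were Fgf18 (0.60), a growth factor of the resting hair follicle, Ifitm6 (0.63), Krt15 (1.04), a basal keratin, and Gpha2 (1.11). Fgf18 averaged 0.123 FPKM in the libraries labelled DKO and 24.2 FPKM in control at 6 months, and 0.44 and 2.35 FPKM at P36. Nearest to Slpi were Krt16 (0.65), a keratin of wounded epidermis, Pla2g7 (0.83), Klk6 (0.83) and Lcn2 (0.84), and nearest to Wfdc12 were Rbp2 (0.39), a retinol-binding protein, Krt16 (0.47), Serpinb6c (0.50) and Krt79 (0.55). Krt16 averaged 368 FPKM in the libraries labelled DKO and 75.4 FPKM in control at P36, and 333 and 40.9 FPKM at 6 months.

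Wfdc5 was nearest to Hcar2 (0.14), a receptor for nicotinic acid, Maob (0.16), Eps8l1 (0.20) and Ankrd35 (0.21). Wfdc21 was nearest to Dkkl1 (0.24), Calm5 (0.25), Hal (0.25), which makes urocanic acid in the cornified layer, and Maob (0.25). Hcar2 averaged 23.5 FPKM in the libraries labelled DKO and 9.13 FPKM in control at P36, and 56.3 and 58.9 FPKM at 6 months. Between members, Wfdc5 and Wfdc21 were 0.29 apart, with 30 genes nearer to Wfdc5 and 17 nearer to Wfdc21. Slpi and Wfdc12 were 0.90 apart, with 7 genes nearer to Slpi and 87 nearer to Wfdc12, and Wfdc3 lay 2.17 or more from every other member.

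The genes beside the members were examined as well. The 3 protein-coding genes on each side of each member came to 24 genes that are not members, of which 11 were tested at P36 and 10 at 6 months. At P36 2 rose and 0 fell, and at 6 months 3 rose and 3 fell, with medians of 0.02 and −0.15. Over all genes 18.0% were called higher and 5.32% lower at P36, and 23.2% and 18.2% at 6 months, so the neighbours' counts lay near the background. Next to Wfdc3, Dnttip1 averaged 17.6 FPKM in the libraries labelled DKO and 24.2 FPKM in control at 6 months (log2 difference −0.44, limma adjusted p = 0.0179). Ube2c, the gene after it, averaged 27.3 and 30.2 FPKM (limma adjusted p = 0.816). Sdc4, a cell surface proteoglycan near Slpi, fell to 78.8 FPKM in the libraries labelled DKO, against 177 FPKM in control at 6 months (−1.16, limma adjusted p = 0.000344), where Slpi was higher.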

How the data were processed

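The submitters deposited 1 table per age. Per the file headers, the authors gave an FPKM value for each gene and library, a log2 ratio of DKO over CON, together with p-values and q-values; no source used here names their test. The tools listed are RSEM 1.2.8 and HISAT2 2.1.0, per the submitters' processing notes, which name human builds for these mouse samples, so gene coordinates are not printed, and the promoter coordinates are those of the RefSeq table. The labels' protocols describe heat-separated dorsal epidermis, RNase H removal of ribosomal RNA and single-end reads.

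Entrez identifiers were matched to RefSeq symbols (19343 of 19392 with values at P36, 17712 of 17750 at 6 months). In R 4.3.3, limma 3.58.1 with a trended prior was fitted per age to log2(FPKM + 1), keeping genes that reached 1 FPKM in 3 or more of the 6 libraries, with Benjamini-Hochberg adjustment over all genes and calls at an adjusted p below 0.05. The script was tested on simulated data. FPKM hold no counts, so the depth per library is unknown. The members and gene lists were chosen with earlier results of these data known. Named genes are the members, every other WAP-domain gene with a value, called list genes whose groups do not overlap (at most 4 per list and age), the 4 genes most like each member and the neighbours; the text names part of these. List genes that were not called, the targeted genes and low markers are named beside them for context. Alternatives were another pseudocount, other filters, other scalings, a replicate block and leaving out each library. No test was run across the 2 tables.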

Additional observations from a re-analysis of the deposited data

Results flagged for a closer look

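Wfdc1 lay in opposite directions at the 2 ages, with groups that did not overlap at either. At P36 it had 0.78, 0.93 and 1.16 FPKM in the libraries labelled DKO, against 0.58, 0.63 and 0.73 FPKM in control, a ratio of the means of 1.48. At 6 months it had 0.33, 0.22 and 0.79 FPKM, against 1.53, 1.92 and 2.69 FPKM in control, a ratio of 0.218. The difference between the ages was not tested, and at P36 the gene did not reach the level at which genes were tested.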

How the results depend on the processing

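No member value changed sign under any alternative run. A pseudocount, filter, scaling or block was changed for 57 member values. Of these, 50 moved by less than the spread between replicates and 7 by more. A filter or a balanced block cannot alter the log2 difference of a gene that is kept. Only the values with another pseudocount or scaling could therefore move, and the count of 50 includes values that could not. With a pseudocount of 0.1, the log2 difference was 4.40 for Wfdc12 at P36 and, at 6 months, 4.92 for Wfdc12, 3.36 for Slpi and −7.67 for Wfdc3. Rescaled to TPM, it was 3.19 for Wfdc12 at P36, and 3.53 for Wfdc12 and −6.73 for Wfdc3 at 6 months. The genes that moved are low in 1 genotype; the cause of the moves on rescaling was not tested. Leaving out each library in turn gave 0.91 to 2.47 for Slpi at P36, −0.48 to −0.11 for Wfdc5 and −0.72 to −0.28 for Wfdc21 at 6 months, and −6.10 to −5.76 for Wfdc3 at 6 months. Wfdc12 without any 1 library labelled DKO, Wfdc3 at 6 months without any 1 control library, and Wfdc12 at both ages and Wfdc3 at P36 with the filter at 5 FPKM did not pass the filter and gave no value.

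The number of genes called at P36 was 2949, and 1662 to 2660 with a library left out (1662 without DKO P36 replicate 2, 1697 without DKO P36 replicate 3); at 6 months it was 5207, and 3682 to 4893. Median-ratio scaling moved the median of all genes at P36 to −0.028 from 0.092 and the share of calls that were higher to 58.9% from 77.1%. Rescaling to TPM moved the median at 6 months to −0.106 from 0.045 and that share to 39.4% from 56.0%. Same-numbered libraries did not deviate together (correlations of −0.12 to 0.18), so the numbers were not taken to pair them, and not every library correlated best with its own number. With the replicate block 2607 genes were called at P36 and 4862 at 6 months, and the log2 difference of Slpi at P36 kept its value with an SE of 0.70. Over the alternatives run, Wfdc17 at P36 had adjusted p-values of 0.00195 to 0.0162 and Wfdc18 at 6 months of 0.000315 to 0.00478. Wfdc1 at 6 months could not be tested without any 1 control library or with the filter at 5 FPKM, and Wfikkn1 at P36 ranged from 0.0237 to 0.165, with calls at 0.0456 without a filter and 0.0275 with median-ratio scaling.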

Other observations

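Control P36 replicate 2, at 0.77 FPKM of Slpi, was set against both other P36 controls for large gaps. Of 8441 genes at 5 FPKM or more in both other P36 controls, 5 were at least 10 times lower in replicate 2. They were Slpi, Il1f6, Lce3d, Sprr2d and Sprr2f, and these criteria were chosen after the values were seen. The same criteria found 0 genes for replicate 1 and 4 for replicate 3, which were H2-Eb1, Krtap31-2, Krtap5-3 and Krtap9-5. Smaller gaps were not counted, and some listed genes had them in replicate 2. Lcn2 was at 2.75 FPKM there, against 8.30 and 9.86 FPKM, and Klk6 at 33.56, against 90.75 and 146.72 FPKM. Others did not, such as C1qa, at 13.95 FPKM between 11.75 and 16.41 FPKM.

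In the authors' deposited table, the log2 ratios of the members were −1.64 (Wfdc3), 1.35 (Wfdc5), 4.87 (Wfdc12), 1.07 (Wfdc21) and 1.63 (Slpi) at P36. At 6 months the authors' deposited table gave −7.77, −0.30, 5.67, −0.47 and 3.43 for the same genes. For Wfdc18 at P36, whose groups overlap, the authors' deposited table gives a q-value of 2.79e-51, where limma over the 3 libraries a group gave an adjusted p of 0.396.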
